A study of Mus musculus with 40 samples.

Results

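Collagen genes encode the chains of the most abundant proteins of the extracellular matrix. The 39 listed genes on autosomes were each matched to 1 gene of the annotation used, out of 51229 autosomal genes, of which 20807 are protein-coding. They were chosen by name and not by their values, though with earlier results of these data known. Their promoters were read from 2000 bp upstream to 1000 bp downstream of every annotated transcript start on mm10. By class they were 11 fibrillar genes and 28 others. The data were ChIP-seq peak lists, that is, regions where the DNA bound by a modified histone is enriched over the input of the same library. H3K27me3 and H3K4me3 were assayed in oligodendrocyte progenitor cells (OPCs) from brainstem and dorsal telencephalon, which the labels call cortex, of mice at postnatal day 5 to 7. K27M cultures came from conditional knock-in mice that make histone H3.3 with methionine in place of lysine at position 27 from the endogenous *H3-3a* locus after hGFAP-Cre, which is active in neural stem and progenitor cells, has removed a stop cassette. Control cultures came from littermates. Tissue was pooled by region and genotype, endothelial cells and microglia were depleted by panning on BSL1, PDGFRα-positive cells were selected, and the OPCs were held in proliferation medium without differentiation. Cultures 59 and 61 of the brainstem and 59, 60 and 61 of the telencephalon each had a control and a K27M member, which gave 5 matched pairs, 10 libraries per mark and 20 libraries in all. Brainstem and telencephalon cultures of the same number may come from the same animals, which the labels do not give, so the 5 pairs and the libraries of both regions may not be independent, as the tests take them to be.

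In most textbook accounts, H3K27me3 is written by Polycomb repressive complex 2 (PRC2) and lies on silent genes, H3K4me3 lies at the starts of active genes, and promoters with both marks are called bivalent. Histone H3 with methionine at position 27 impairs PRC2. Fibrillar collagens form the banded fibers of skin, bone, cartilage and meninges, type IV collagens form the sheets of basement membranes, and FACIT collagens (fibril-associated collagens with interrupted triple helices) sit on the surface of fibers. In the brain, collagen is made mainly by meningeal and vascular cells, while OPCs contact the basement membrane of vessels.

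The H3K27me3 lists held 4739 to 64808 peaks and the H3K4me3 lists 20961 to 31200. Within all 5 pairs the K27M library had fewer H3K27me3 peaks than its control, and the telencephalon control of culture 59 had 12715, the fewest of the controls. A library with weaker enrichment yields fewer peaks, and a promoter without a peak can still hold signal under the caller's threshold. Each list comes from a bulk culture, in which a mark on fewer cells and less of the mark per cell cannot be told apart. As a check of the cell type, 6 of 6 OPC marker genes (*Pdgfra*, *Cspg4*, *Olig1*, *Olig2*, *Sox10* and *Gpr17*) had promoter H3K4me3 in all 10 libraries and H3K27me3 in none. None of 5 microglia markers had H3K4me3 in any library. Of 6 fibroblast and pericyte markers, which mark cells rich in fibrillar collagen, *Lum*, *Dcn* and *Rgs5* had H3K4me3 in no library, and *Pdgfrb* and *Anpep* had it in 2 and 3 of 5 controls and in 0 and 3 of 5 K27M libraries. *Kcnj8* had both marks in every library. Of 5 endothelial markers, *Pecam1* and *Tek* had neither mark in any library, *Kdr* and *Flt1* had H3K4me3 in all of them together with H3K27me3 in 9 and 10 of 10, and *Cldn5* had H3K27me3 in all 10 and H3K4me3 in 3 of 5 controls and 2 of 5 K27M libraries. H3K4me3 was also at 3 to 4 of 4 neuron markers and at 1 to 4 of 4 astrocyte markers per library, *Gja1* in all 10, so that H3K4me3 alone did not separate these cell types.

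Promoter sequences of 8 collagen genes are given so that the promoters behind the results can be seen. They run from 250 bases before to 50 bases after a RefSeq transcript start on GRCm38.p6, the assembly named mm10, 5′ to 3′ on the strand of the gene, with CpG dinucleotides in capitals. RefSeq entries were matched for 30 of the 39 genes. *Col4a1* (chr8:11312777-11313076, minus strand) and *Col4a2* (chr8:11312555-11312854, plus strand) are transcribed in opposite directions from starts 21 bp apart, so that their 5′ ends overlap, and the printed stretches share 78 bases on opposite strands.
Col4a1: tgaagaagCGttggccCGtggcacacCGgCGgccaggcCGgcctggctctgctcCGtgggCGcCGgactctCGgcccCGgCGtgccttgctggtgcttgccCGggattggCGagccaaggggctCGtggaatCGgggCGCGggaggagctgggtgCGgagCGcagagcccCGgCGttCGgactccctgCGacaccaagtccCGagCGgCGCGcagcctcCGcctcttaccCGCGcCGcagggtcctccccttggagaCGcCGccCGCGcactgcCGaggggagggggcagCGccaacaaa
Col4a2: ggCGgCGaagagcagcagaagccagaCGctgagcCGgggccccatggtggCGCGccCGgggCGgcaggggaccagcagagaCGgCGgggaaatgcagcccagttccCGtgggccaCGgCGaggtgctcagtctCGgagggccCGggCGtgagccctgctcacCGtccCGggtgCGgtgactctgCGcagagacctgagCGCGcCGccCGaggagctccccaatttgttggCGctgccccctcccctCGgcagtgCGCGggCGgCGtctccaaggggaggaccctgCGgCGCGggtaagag
Of the genes with a RefSeq entry, 1 is shown for each promoter state found in the controls of both regions. *Col27a1* (chr4:63215162-63215461, plus strand) was bivalent, *Col11a1* (chr3:114030290-114030589, plus strand) had H3K4me3 only, *Col7a1* (chr9:108953336-108953635, plus strand) had H3K27me3 only, and *Col3a1* (chr1:45311288-45311587, plus strand) had neither mark.
Col27a1: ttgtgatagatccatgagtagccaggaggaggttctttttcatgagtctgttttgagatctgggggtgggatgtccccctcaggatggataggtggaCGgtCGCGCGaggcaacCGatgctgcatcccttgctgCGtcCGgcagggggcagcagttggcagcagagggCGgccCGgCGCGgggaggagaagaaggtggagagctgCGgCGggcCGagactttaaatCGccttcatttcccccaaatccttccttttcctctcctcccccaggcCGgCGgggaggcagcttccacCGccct
Col11a1: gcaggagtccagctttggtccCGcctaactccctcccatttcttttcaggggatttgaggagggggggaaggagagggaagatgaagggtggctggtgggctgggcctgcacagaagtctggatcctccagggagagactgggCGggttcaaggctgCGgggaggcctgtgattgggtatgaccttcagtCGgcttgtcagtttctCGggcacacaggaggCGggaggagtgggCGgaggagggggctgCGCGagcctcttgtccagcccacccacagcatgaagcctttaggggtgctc
Col7a1: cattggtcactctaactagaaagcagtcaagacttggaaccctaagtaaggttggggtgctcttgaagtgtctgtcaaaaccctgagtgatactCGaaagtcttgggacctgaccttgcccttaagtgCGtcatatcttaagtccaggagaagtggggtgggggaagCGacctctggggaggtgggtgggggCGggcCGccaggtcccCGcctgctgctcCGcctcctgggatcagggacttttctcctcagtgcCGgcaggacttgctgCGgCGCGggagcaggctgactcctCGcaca
Col3a1: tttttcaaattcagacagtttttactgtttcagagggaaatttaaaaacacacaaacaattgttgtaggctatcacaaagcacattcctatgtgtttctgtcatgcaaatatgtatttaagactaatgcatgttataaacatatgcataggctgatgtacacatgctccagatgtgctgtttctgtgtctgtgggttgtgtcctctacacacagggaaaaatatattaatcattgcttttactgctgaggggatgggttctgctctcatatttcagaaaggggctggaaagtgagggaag
*Col8a1* (chr16:57754688-57754987, minus strand) and *Col8a2* (chr4:126286544-126286843, plus strand), which encode the chains of type VIII collagen, were added after their values were seen, because H3K27me3 was at *Col8a2* in every K27M culture and at *Col8a1* in none.
Col8a1: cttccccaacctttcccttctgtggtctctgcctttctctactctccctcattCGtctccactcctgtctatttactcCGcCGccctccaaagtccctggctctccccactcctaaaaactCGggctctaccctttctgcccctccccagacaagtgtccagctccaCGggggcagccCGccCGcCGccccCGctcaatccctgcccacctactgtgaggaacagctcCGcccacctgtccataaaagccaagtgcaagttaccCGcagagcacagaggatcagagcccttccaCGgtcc
Col8a2: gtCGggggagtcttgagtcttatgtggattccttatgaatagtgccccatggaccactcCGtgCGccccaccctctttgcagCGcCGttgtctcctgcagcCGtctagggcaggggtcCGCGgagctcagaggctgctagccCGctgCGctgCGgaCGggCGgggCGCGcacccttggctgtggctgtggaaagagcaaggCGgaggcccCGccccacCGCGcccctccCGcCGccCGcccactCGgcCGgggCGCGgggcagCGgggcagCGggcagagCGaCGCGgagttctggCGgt
The stretch of *Col4a1* holds 37 CpG dinucleotides, that of *Col4a2* 33, *Col8a2* 32, *Col27a1* 18, *Col7a1* and *Col8a1* 12 each, *Col11a1* 9 and *Col3a1* 0. An H3K27me3 peak touched the printed stretch of *Col8a2* in 5 of 5 control and 5 of 5 K27M libraries, and that of *Col8a1* in 4 of 5 control and 0 of 5 K27M libraries.

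Fewer collagen genes carried promoter H3K27me3 in K27M cultures than in their matched controls. A promoter peak was found at 26 and 21 of the 39 genes in brainstem controls 59 and 61, and at 12 and 11 in the matched K27M cultures. In telencephalon controls 59, 60 and 61 there were 13, 28 and 28 such genes, and 8, 15 and 11 in K27M. The number was lower in K27M in 5 of 5 pairs, by a mean of 11.8 genes (K27M minus control −11.8, SD 4.55, n = 5 pairs), from 23.2 ± 6.38 (SD, n = 5) in controls to 11.4 ± 2.51 in K27M. No collagen gene had an H3K27me3 peak in a K27M culture without one in the matched control. This has no share of all genes beside it, so it does not set the collagen genes apart. Among all autosomal genes, the share with a promoter H3K27me3 peak was 6.52% to 19.5% in controls and 3.87% to 6.82% in K27M, and among protein-coding genes 10.4% to 29.4% and 6.53% to 11.7%. The collagen genes thus stood at 33.3% to 71.8% in controls and 20.5% to 38.5% in K27M, above either background in each library. Neither background was matched for number of starts or promoter length, here or below. A gene with more starts has more windows in which a peak can fall, and collagen genes had 1 to 13 starts. Whether this affects the shares was not tested. Of the collagen genes with a control peak, 50.6% ± 8.36 (SD, n = 5 pairs) also had one in the matched K27M culture, against 43.6% ± 13.3 of all autosomal genes and 47.9% ± 13.0 of protein-coding genes. Pair by pair, the collagen share was above both others except in brainstem culture 61, where it was 52.4% against 57.2% and 61.7%. In telencephalon culture 59 it was 61.5% against 56.9% and 60.5%. These differences were not tested. The size of the difference depended on how many peaks each list held: when every list was held to its 4739 peaks of lowest p-value, 9 to 15 collagen genes had a peak in controls and 8 to 10 in K27M, a mean difference of −2.60 genes (SD 2.61), lower in 4 of 5 pairs. In those equal lists the share of all autosomal genes differed by −1.78 points and that of the collagen genes by −6.67 points.

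**Figure D1:**
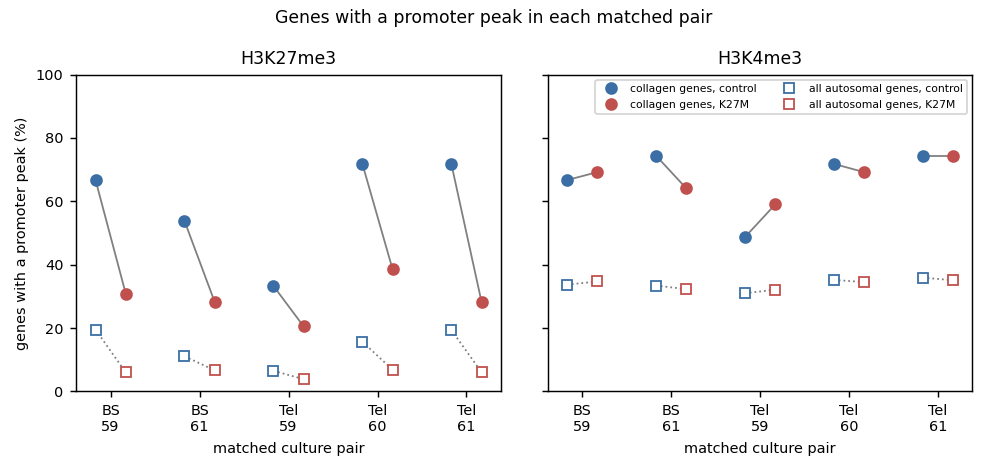
Share of the 39 collagen genes (filled circles) and of all autosomal genes (open squares) with a promoter peak, in percent on the vertical axis, for H3K27me3 on the left and H3K4me3 on the right, with control in blue and K27M in red for each matched pair (BS, brainstem; Tel, telencephalon). For H3K27me3 the collagen share is lower in K27M in each of the 5 pairs, at 71.8% and 28.2% in telencephalon culture 61, while for H3K4me3 the lines run in both directions.

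Across the 10 H3K27me3 libraries, the collagen genes fell into a few patterns. Of 39, 8 had a promoter peak in all 10 libraries, namely *Col2a1*, *Col8a2*, *Col12a1*, *Col13a1*, *Col14a1*, *Col15a1*, *Col26a1* and *Col27a1*, against 3.47% of all autosomal genes and 6.01% of protein-coding genes. With a fold enrichment of at least 3 required of each peak, 2 of the 8 had one in all 10 libraries, *Col14a1* and *Col15a1*, and with equal numbers of peaks all 8 did. Another 14 had one in at least 1 control and in no K27M library (9 with equal numbers of peaks, of which 5 were among the 14), 8 had one in some K27M libraries but not in all 10, and 9 had none anywhere. These patterns were held by 16.9%, 4.63% and 75.0% of all autosomal genes and by 22.0%, 7.63% and 64.3% of protein-coding genes. Of the 13 collagen genes with a peak in all 5 controls, 8 had one in all 5 K27M libraries, near the 61.1% of all autosomal genes with a peak in all 5 controls, and 2, *Col4a3* and *Col8a1*, had one in no K27M library, where the background was 10.5%. A peak was present in the control and absent in K27M in at least 3 of 5 pairs for 13 collagen genes, against 7.31% of all autosomal and 11.0% of protein-coding genes. The opposite pattern was found at 0 collagen genes and at 0.0254% of all autosomal genes.

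**Figure D2:**
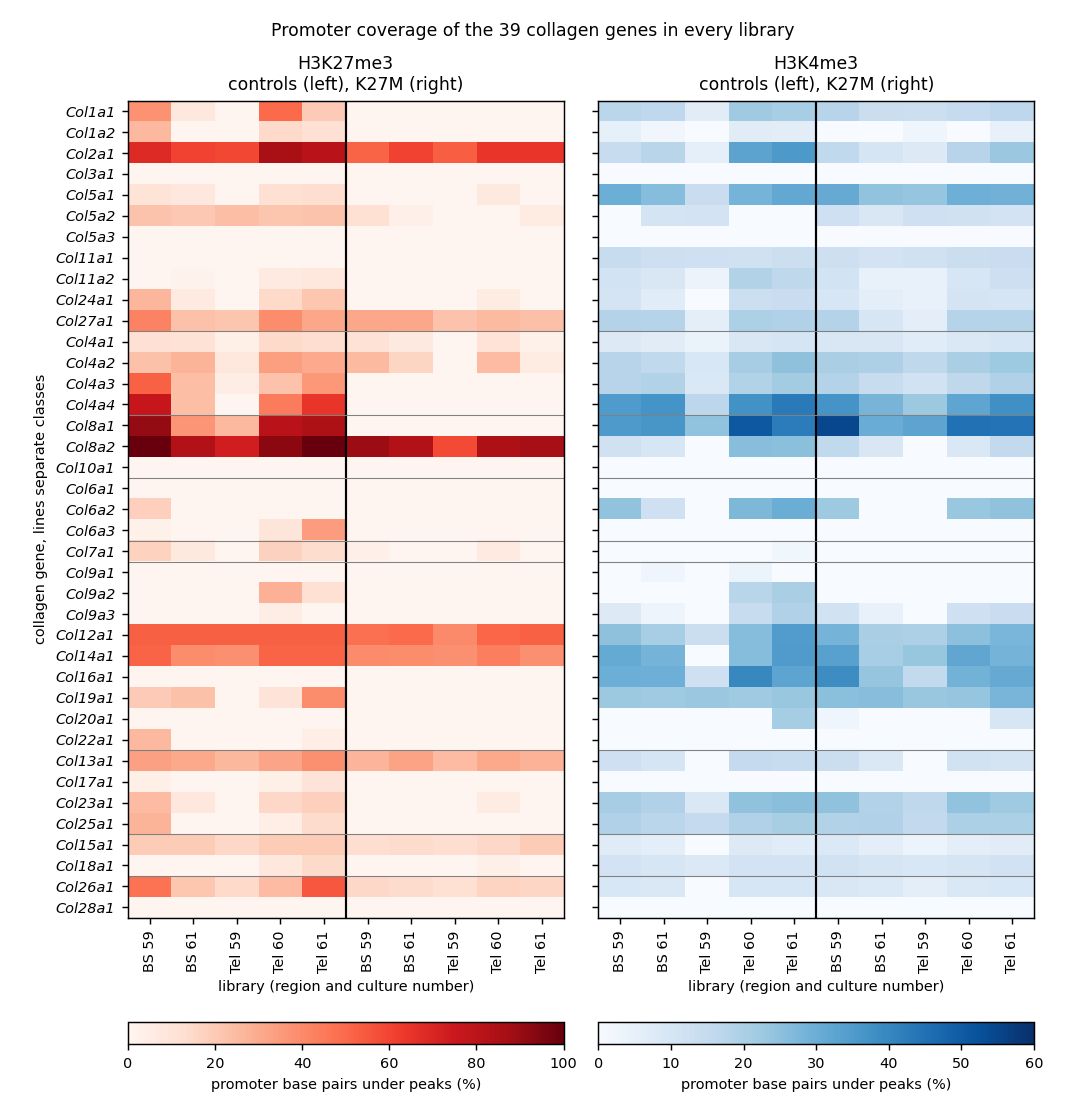
Percent of promoter base pairs under H3K27me3 peaks (left, 0 to 100%) and H3K4me3 peaks (right, 0 to 60%) for each of the 39 collagen genes, with 1 column per library, the 5 controls left of the black line and the 5 K27M libraries right of it (BS, brainstem; Tel, telencephalon). H3K27me3 is on the rows of *Col2a1*, *Col8a2*, *Col12a1* and *Col14a1* in K27M and is blank at *Col8a1*, *Col4a3* and *Col4a4*, while 17 rows of H3K4me3 are filled in all 10 columns and the row of *Col5a2* is filled in 2 controls and 5 K27M libraries.

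For a finer measure, the percent of each gene's promoter base pairs under peaks was compared within pairs. With 5 pairs, the two-sided exact sign-flip permutation test has 32 arrangements and a smallest p of 0.0625, so that no single gene could pass 0.05. H3K27me3 coverage was lower in K27M in 5 of 5 pairs at 7 collagen genes, *Col4a1*, *Col4a3*, *Col5a2*, *Col8a1*, *Col8a2*, *Col12a1* and *Col26a1*, each with p = 0.0625 in that permutation test. This was the case for 2.88% of all autosomal and 4.84% of protein-coding genes. Only a gene with a peak in all 5 controls could be lower in every pair. Of such genes, 7 of 13 collagen genes and 1476 of 2913 autosomal genes were, so the collagen genes did not stand apart there. It was higher in K27M in 5 of 5 pairs at 0 collagen genes and at 0.0273% of all autosomal genes. Without telencephalon culture 59, whose control list was the shortest, 14 collagen genes were lower in all 4 remaining pairs, against 6.14% of all autosomal genes. A gene that has no peak in 1 control cannot be lower in that pair, which limits both counts and both shares of all genes.

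Values below are the percent of promoter base pairs under peaks, given for brainstem cultures 59 and 61 and then telencephalon cultures 59, 60 and 61. Among the fibrillar genes, *Col2a1*, the type II collagen of cartilage (chromosome 15, 97975602 to 98004695, minus strand), had H3K27me3 coverage of 68.3, 60.2, 59.1, 85.6 and 80.7% in controls and 51.2, 60.5, 53.0, 64.4 and 64.4% in K27M. All 10 libraries were marked, and the K27M value was the lower one in 4 of 5 pairs (mean difference −12.1 points, SD 8.90, n = 5, exact sign-flip p = 0.125). The peaks that touched its promoters spanned 10.7 to 25.3 kb in controls and 6.55 to 17.5 kb in K27M. *Col1a1* (chromosome 11, 94936224 to 94953042, plus strand), which encodes the main chain of type I collagen in bone, skin and scar, had 37.4, 8.16, 0, 49.6 and 19.7% in controls and 0 in all 5 K27M libraries. *Col1a2*, its partner chain (chromosome 6, 4504814 to 4541544, plus strand), had 25.4, 0, 0, 14.8 and 11.6% in controls and 0 in all 5 K27M libraries. Both type I genes were thus marked in several controls and in no K27M culture, and both lacked H3K27me3 in telencephalon control 59. In lists of equal numbers of peaks *Col1a1* was marked in 1 of 5 controls and 0 of 5 K27M libraries and *Col1a2* in none of the 10, so that the difference at *Col1a2* was not seen there. *Col3a1*, which encodes type III collagen and is a common marker of fibroblasts (chromosome 1, 45311538 to 45349706, plus strand), had no peak of either mark in any library.

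The type V, XI, XXIV and XXVII genes covered a range of patterns. *Col5a2* (chromosome 1, 45374321 to 45503282, minus strand), which lies next to *Col3a1* and encodes a chain that controls fiber diameter, had H3K27me3 coverage of 21.9, 20.4, 24.2, 21.5 and 22.0% in controls and 11.8, 3.48, 0, 0 and 5.91% in K27M. The groups did not overlap (mean difference −17.7 points, SD 5.46, n = 5, exact sign-flip p = 0.0625). Its H3K4me3 coverage was 0, 10.4, 10.9, 0 and 0% in controls and 12.5, 8.98, 12.5, 11.9 and 11.0% in K27M, so that H3K4me3 was present in 2 of 5 controls and 5 of 5 K27M libraries (mean difference 7.11 points, SD 6.51, higher in 4 of 5 pairs, exact sign-flip p = 0.125). *Col5a1*, the partner chain (chromosome 2, 27886425 to 28039514, plus strand), had H3K27me3 coverage of 10.4, 7.87, 0, 12.1 and 13.0% in controls and 0, 0, 0, 7.12 and 0% in K27M. *Col24a1* (chromosome 3, 145292472 to 145552011, plus strand) had 26.2, 6.39, 0, 14.7 and 21.4% in controls and 0, 0, 0, 6.13 and 0% in K27M. In these 2 genes the only K27M library with a peak was telencephalon culture 60. *Col27a1*, a fibrillar collagen of cartilage (chromosome 4, 63214004 to 63334991, plus strand), was marked in all 10 libraries, at 21.7 to 41.8% in controls and 22.3 to 31.0% in K27M. *Col11a2* (chromosome 17, 34039437 to 34066685, plus strand), another cartilage chain, had 0, 1.85, 0, 6.50 and 8.17% in controls and 0 in K27M, and one of its promoter windows overlaps that of *Rxrb*. *Col11a1* (chromosome 3, 114030540 to 114220718, plus strand) had H3K4me3 in all 10 libraries and H3K27me3 in none. *Col5a3*, whose window overlaps that of *Rdh8*, had no peak of either mark. In lists of equal numbers of peaks, H3K27me3 was at *Col5a1* and *Col11a2* in no library. It was at *Col24a1* in 1 of 5 controls and at *Col5a2* in 4 of 5, with none in K27M.

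The type IV genes, which encode basement membrane chains, lie in pairs on opposite strands and share promoters, so the members of a pair are not separate observations. *Col4a1* (chromosome 8, 11198423 to 11312826, minus strand) and *Col4a2* (chromosome 8, 11312805 to 11449287, plus strand) share 2115 bp of promoter windows. *Col4a1* had H3K27me3 coverage of 11.5, 11.2, 3.69, 14.8 and 13.2% in controls and 11.2, 6.90, 0, 10.8 and 2.55% in K27M. *Col4a2* had 23.0, 27, 8.08, 33.3 and 30.3% in controls and 25.2, 16.2, 0, 24.8 and 5.99% in K27M. These values overlapped between genotypes, and the mark remained in 4 of 5 K27M libraries, absent in telencephalon culture 59. *Col4a3* (chromosome 1, 82586921 to 82722059, plus strand) and *Col4a4* (chromosome 1, 82448423 to 82586849, minus strand) start 72 bp apart and share 2183 bp. They encode chains found in basement membranes of kidney, lung and inner ear. *Col4a3* had H3K27me3 coverage of 52.0, 23.5, 4.74, 22.3 and 35.8% in controls and 0 in all 5 K27M libraries (mean difference −27.7 points, SD 17.5, exact sign-flip p = 0.0625, n = 5). *Col4a4* had 76.4, 23.6, 0, 44.2 and 64.4% in controls and 0 in all 5 K27M libraries. H3K4me3 was at all 4 type IV promoters in all 10 libraries, with coverage of 16.7 to 42.7% at *Col4a4* in controls and 22.7 to 37.9% in K27M. In lists of equal numbers of peaks H3K27me3 was at *Col4a3* in 1 of 5 controls and at *Col4a4* in 0, with none in K27M, while *Col4a1* and *Col4a2* were marked in 2 of 5 controls and 4 of 5 K27M libraries, the opposite direction.

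The chains of type VIII collagen, a network-forming collagen of vessels and of the membrane beneath the corneal endothelium, lay on different chromosomes and differed in K27M cultures. *Col8a2* (chromosome 4, 126286793 to 126314330, plus strand) had the highest mean coverage of all 39 genes, with 100, 83.3, 72.7, 92.2 and 100% in controls and 89.3, 83.0, 58.4, 84.5 and 87.2% in K27M. *Col8a1* (chromosome 16, 57624258 to 57754737, minus strand) had 90.4, 36.5, 25.6, 80.5 and 84.7% in controls and 0 in all 5 K27M libraries. Its mean difference was −63.5 points (SD 30.1, n = 5, exact sign-flip p = 0.0625), against −9.17 points (SD 5.54) at *Col8a2*, and it was the larger decrease in all 5 pairs. H3K4me3 at *Col8a1* covered 35.3, 36.1, 24.3, 50.8 and 42.2% in controls and 54.5, 30.3, 32.4, 44.9 and 44.5% in K27M, and the groups overlapped. At *Col8a2* it covered 11.8, 9.52, 0, 25.6 and 25.3% in controls and 15.8, 9.12, 0, 8.67 and 15.7% in K27M. In lists held to equal numbers of peaks, *Col8a1* was marked in 3 of 5 controls and 0 of 5 K27M libraries, and *Col8a2* in all 10. *Col10a1*, the type X collagen of hypertrophic cartilage, had no peak of either mark.

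**Figure D3:**
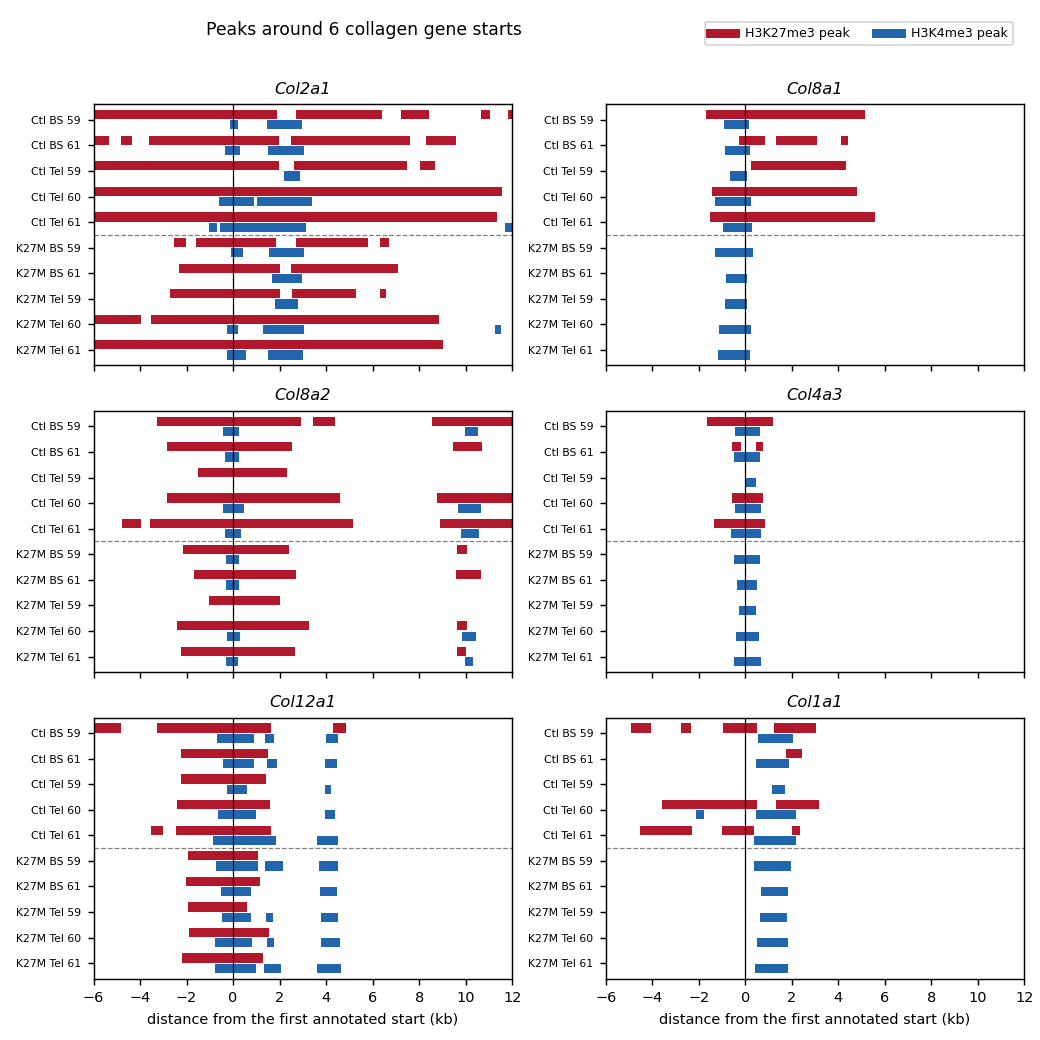
Merged peaks within 6 kb before and 12 kb after the first annotated start of *Col2a1*, *Col8a2* and *Col12a1* (left column) and of *Col8a1*, *Col4a3* and *Col1a1* (right column), in kb from that start, with 1 row per library and controls above the dashed line (H3K27me3 red, H3K4me3 blue; Ctl, control; BS, brainstem; Tel, telencephalon). Genes on the left keep red bars over the start in the 5 K27M rows, and genes on the right have none there while the blue bars remain.

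The type VI genes, which form beaded filaments around cells, had H3K27me3 only in controls. *Col6a3* (chromosome 1, 90765923 to 90843971, minus strand) had coverage of 2.47, 0, 0, 9.32 and 34.5% in controls and 0 in K27M, with H3K4me3 in no library. *Col6a2* had H3K27me3 in brainstem control 59 alone, at 18.1%, and H3K4me3 in 4 of 5 controls and 3 of 5 K27M libraries, and *Col6a1* had neither mark. *Col7a1*, the anchoring fibril of skin (chromosome 9, 108953586 to 108984875, plus strand), had H3K27me3 in 4 of 5 controls, at up to 17.2%, and in 2 of 5 K27M libraries, at up to 6.31%, with H3K4me3 in 1 control. In lists of equal numbers of peaks, H3K27me3 was at *Col6a2* and *Col6a3* in no library, and at *Col7a1* in 3 of 5 controls and 0 of 5 K27M libraries.

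Of the 9 FACIT genes, *Col12a1* and *Col14a1*, which coat fibers of type I collagen, kept the mark. *Col12a1* (chromosome 9, 79598991 to 79718831, minus strand) had H3K27me3 over 52.7% of its promoters in each of the 5 controls and over 40.1 to 52.2% in K27M. *Col14a1* had 37.9 to 51.4% in controls and 38.0 to 43.2% in K27M. *Col19a1* (chromosome 1, 24261890 to 24587472, minus strand) had 19.8, 23.0, 0, 10.1 and 38.8% in controls and 0 in all 5 K27M libraries. It was also the 1 collagen gene with more H3K4me3 coverage in K27M in 5 of 5 pairs, at 22.2 to 23.4% in controls and 23.3 to 28.1% in K27M (mean difference 2.55 points, SD 1.61, n = 5, exact sign-flip p = 0.0625), where 1.96% of all autosomal genes were higher in every pair. *Col9a2* (chromosome 4, 121039385 to 121055322, plus strand) had H3K27me3 in telencephalon controls 60 and 61 alone, at 28.0 and 11.8%, and H3K4me3 in the same 2 libraries, at 17.5 and 20.2%. *Col9a3* and *Col22a1* had H3K27me3 in 1 and 2 of 5 controls and in no K27M library. In lists of equal numbers of peaks, H3K27me3 was at *Col19a1*, *Col9a2* and *Col9a3* in no library, so their differences were not seen there. *Col22a1* had it in 1 of 5 controls and 0 of 5 K27M libraries of those lists. *Col16a1* had H3K4me3 in all 10 libraries and H3K27me3 in none. *Col9a1* had H3K4me3 in 2 controls and, over 5 bp, in 1 K27M library, and *Col20a1* in 1 and 2, and neither had H3K27me3.

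Of the transmembrane collagens, *Col13a1* (chromosome 10, 61838236 to 61979108, minus strand), which helps to build neuromuscular junctions, had H3K27me3 in all 10 libraries, at 26.0 to 37.9% in controls and 24.9 to 32.4% in K27M. *Col23a1* (chromosome 11, 51289920 to 51583918, plus strand) had 24.8, 7.55, 0, 15.0 and 17.8% in controls and 0, 0, 0, 5.57 and 0% in K27M. *Col25a1*, which is made by neurons (chromosome 3, 130131501 to 130599877, plus strand), had 27.3, 0, 0, 4.01 and 13.7% in controls and 0 in K27M. *Col17a1*, a hemidesmosome protein of skin (chromosome 19, 47646344 to 47692094, minus strand), had 3.53, 0, 0, 3.87 and 10.1% in controls and 0 in K27M, with H3K4me3 in no library. These 3 genes were unmarked by H3K27me3 in telencephalon control 59, as in its K27M partner. In lists of equal numbers of peaks, H3K27me3 was at *Col17a1* in no library. It was at *Col23a1* in 2 of 5 controls and at *Col25a1* in 1 of 5, with none in K27M. Of the multiplexins, which are basement membrane collagens cleaved to soluble fragments, *Col15a1* had H3K27me3 in all 10 libraries, at 15.3 to 19.3% in controls and 12.9 to 19.3% in K27M. *Col18a1* (chromosome 10, 77052178 to 77166548, minus strand) had 0, 0, 0, 8.32 and 14.3% in controls and 0, 0, 0, 3.01 and 0% in K27M, and in lists of equal numbers of peaks it was marked in no library. *Col26a1* had H3K27me3 in all 10 libraries, at 46.9, 21.3, 14.5, 24.7 and 55.0% in controls and 14.9, 13.9, 11.8, 16.5 and 15.8% in K27M, and *Col28a1* had none, with H3K4me3 in 2 controls and 1 K27M library. That H3K4me3 covered only 24 and 3 bp in the controls and 11 bp in K27M, of 12000 bp of promoters.

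The share of fibrillar genes with H3K27me3 did not differ from that of the other collagens beyond the spread between control libraries. In controls, 7, 7, 3, 8 and 8 of the 11 fibrillar genes and 19, 14, 10, 20 and 20 of the 28 others had a promoter peak, and in K27M 3, 3, 2, 4 and 3 fibrillar genes and 9, 8, 6, 11 and 8 others. The fibrillar share minus the other share was 0.714 points on average in controls (SD 8.30, n = 5 libraries, from −8.44 to 13.6) and −2.73 points in K27M (SD 1.50, below 0 in 5 of 5 libraries). The control difference was smaller than its spread and changed sign with equal numbers of peaks (−3.05 points) and without brainstem culture 61 (−2.52 points). H3K4me3 was at 8.00 of 11 fibrillar genes on average in controls (range 7 to 9) and 8.40 in K27M (8 to 9), and at 18.2 of 28 others (12 to 21) and 17.8 (14 to 20).

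Where the mark was present in every library, its peaks were mostly shorter in K27M. The 8 genes with a peak in all 10 libraries had a median length of H3K27me3 peaks touching the promoters of 9.59, 5.82, 3.56, 7.24 and 12.5 kb in the 5 controls and 4.08, 5.21, 3.09, 5.10 and 4.65 kb in the matched K27M libraries. The length was less in K27M at 8, 6, 8, 8 and 8 of the 8 genes, with *Col13a1* and *Col27a1* the exceptions in brainstem culture 61. Over the 1780 autosomal genes marked in all 10 libraries it was less in K27M at 85.8, 70.4, 68.8, 94.0 and 93.6% of genes. Mean promoter coverage of these genes was 51.7, 41.1, 37.5, 49.6 and 53.5% in controls and 39.2, 40.4, 32.7, 41.3 and 40.9% in K27M. These genes were picked for their peaks in these libraries, so the values are a description.

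In the controls, promoters that kept a peak in the matched K27M culture had higher fold enrichment over input than those that did not. Fold enrichment is the authors' value for a peak and can be compared only within a library. For collagen genes with a control peak, the median of the highest value at the promoter was 5.63 for the 12 kept and 2.51 for the 14 not kept in brainstem control 59, and 4.73 for 11 and 2.64 for 10 in brainstem control 61. In telencephalon control 60 it was 7.11 for 15 and 2.57 for 13, and in telencephalon control 61 6.48 for 11 and 2.60 for 17. In telencephalon control 59 the order was not seen, with 2.62 for 8 kept and 2.84 for 5 not kept. All autosomal genes gave 5.09 and 2.47, 4.24 and 2.83, 2.85 and 2.41, 6.41 and 2.64, and 5.28 and 2.45 in brainstem 59 and 61 and telencephalon 59, 60 and 61. The collagen genes followed the pattern of all genes in 4 of 5 libraries. Collagen promoters that kept the peak had a median of 24.7 to 37.9% of base pairs covered in controls. For all autosomal genes that kept it, the median was 54.5 to 83.5%. These shares are taken over all merged windows of a gene. A gene with several separate starts can therefore score low even where a start is well covered. At *Col15a1* in brainstem control 59, for example, H3K27me3 peaks covered 3000 of 15551 bp. The sets were not matched for number of starts, and whether this affects the difference was not tested.

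**Figure D4:**
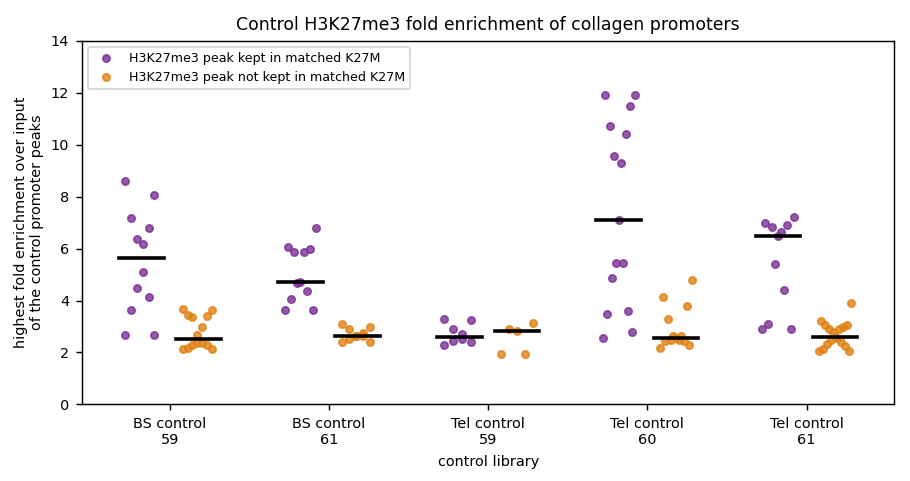
Highest H3K27me3 fold enrichment over input among the promoter peaks of each collagen gene with a peak in that control library, as 1 point per gene, split by whether the matched K27M culture also had a promoter peak (purple, kept; orange, not kept), with medians as black lines. Medians of kept genes lie between 4.73 and 7.11 in 4 libraries, above 2.51 to 2.64 for genes not kept, and the order is the other way in telencephalon control 59 (2.62 and 2.84).

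H3K4me3 at collagen promoters showed no common direction by genotype. A promoter peak was found at 26 and 29 of 39 genes in brainstem controls 59 and 61 and at 27 and 25 in K27M, and at 19, 28 and 29 in telencephalon controls 59, 60 and 61 and at 23, 27 and 29 in K27M. The mean difference was 0 genes (SD 2.92, n = 5 pairs), with 2 pairs lower and 2 higher. The collagen share was 48.7% to 74.4% over the 10 libraries, against 31.0% to 35.9% of all autosomal genes and 59.8% to 66.3% of protein-coding genes. H3K4me3 was in all 10 libraries at 17 collagen genes, namely *Col1a1*, *Col2a1*, *Col4a1*, *Col4a2*, *Col4a3*, *Col4a4*, *Col5a1*, *Col8a1*, *Col11a1*, *Col11a2*, *Col12a1*, *Col16a1*, *Col18a1*, *Col19a1*, *Col23a1*, *Col25a1* and *Col27a1*. It was in no library at 7, *Col3a1*, *Col5a3*, *Col6a1*, *Col6a3*, *Col10a1*, *Col17a1* and *Col22a1*. The counts of 17 and 7 have no share of all genes beside them, so they do not set the collagen genes apart. *Col14a1*, *Col15a1*, *Col24a1* and *Col26a1* had it in 4 of 5 controls and 5 of 5 K27M libraries, *Col8a2*, *Col9a3* and *Col13a1* in 4 and 4, and *Col1a2* in 4 and 2. At *Col1a1* it covered 17.3, 16.0, 6.61, 22.2 and 20.8% of promoters in controls and 17.8, 13.2, 13.1, 14.9 and 16.5% in K27M, so H3K4me3 was at the gene in the K27M cultures that lacked H3K27me3. Coverage was lower in K27M in 5 of 5 pairs at 0 collagen genes, where the background was 0.246%. No collagen gene could pass an exact sign-flip permutation test at 0.05, and when genotypes were permuted inside each region without pairs, 0 collagen genes were lower and 1 was higher at an unadjusted p under 0.05, against 0.0413% and 2.53% of 19379 autosomal genes with a peak. For H3K27me3 the same permutation test had 4 collagen genes lower, of 30 with a peak, against 7.42% of 12795 autosomal genes with a peak, and none passed after adjustment over those genes (smallest adjusted p = 0.279). Without telencephalon culture 59, 5 were lower in H3K4me3 coverage in all 4 remaining pairs, against 1.77% of all autosomal genes.

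Both marks of the same culture lay on the same promoter window at 21 and 20 collagen genes in brainstem controls 59 and 61 and at 11 and 11 in K27M. In the telencephalon there were 7, 24 and 24 such genes in controls 59, 60 and 61 and 6, 14 and 11 in K27M. The mean difference was −8.60 genes (SD 4.51, n = 5 pairs, lower in 5 of 5), and in equal lists −0.800. Among all autosomal genes, both marks lay on one window at 9.59, 6.04, 2.61, 9.63 and 10.6% in the same controls and at 4.29, 4.19, 1.97, 4.90 and 4.39% in K27M, also lower in each pair. In K27M, 10.6 ± 2.88 collagen genes (SD, n = 5) had both marks, out of 11.4 with H3K27me3. Where both marks were present, they overlapped base by base to different degrees. At *Col8a2*, *Col13a1* and *Col15a1*, 100% of the promoter H3K4me3 base pairs lay under H3K27me3 in each control and each K27M library that had both. At *Col12a1* it was 100% in the 5 controls and 88.5 to 100% in K27M. At *Col1a1* it was 53.9, 9.76, 59.7 and 12.0% in brainstem controls 59 and 61 and telencephalon controls 60 and 61, and at *Col5a1* 34.9, 24.1, 42.4 and 34.4%. The marks at *Col1a1* and *Col5a1* were thus in part side by side, as the peaks around *Col1a1* show.

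The controls of both regions were compared through consensus peaks, which need support from at least 2 cultures and a combined p-value, with the state taken as bivalent, then H3K4me3 only, H3K27me3 only or unmarked. In brainstem controls 12 collagen genes were bivalent, 14 had H3K4me3 only, 2 H3K27me3 only and 11 neither. In telencephalon controls these were 19, 9, 2 and 9. Bivalent promoters were held by 4.89% of all autosomal and 9.67% of protein-coding genes in the brainstem and by 7.45% and 14.3% in the telencephalon. In the same order, H3K4me3 alone was at 27.6% and 52.8%, and at 27.1% and 50.8%. H3K27me3 alone was at 3.21% and 3.51%, and at 3.34% and 3.19%. Neither mark was at 64.3% and 34.0%, and at 62.1% and 31.6%. The state was the same in both regions for 28 genes, a count made for the collagen genes only. The 11 genes bivalent in both were *Col2a1*, *Col4a1*, *Col4a2*, *Col8a1*, *Col8a2*, *Col12a1*, *Col13a1*, *Col14a1*, *Col15a1*, *Col26a1* and *Col27a1*, and *Col5a2* and *Col7a1* had H3K27me3 only in both. *Col4a3*, *Col4a4*, *Col5a1*, *Col18a1*, *Col19a1*, *Col23a1*, *Col24a1* and *Col25a1* were bivalent in telencephalon controls and carried H3K4me3 alone in brainstem controls. *Col1a1* was the reverse, and *Col1a2* and *Col9a2* were unmarked in the brainstem and had H3K4me3 only in the telencephalon. A consensus state is not the same as a peak in a single library: 7 of the 8 genes bivalent in the telencephalon only, all but *Col18a1*, also had an H3K27me3 peak in at least 1 brainstem control. Support from 2 cultures means both controls in the brainstem but 2 of 3 in the telencephalon. The counts of 12 and 19 were therefore made at unlike strictness. With telencephalon control 60 or 61 left out, 6 collagen genes were bivalent in the telencephalon, fewer than in the brainstem, so the order of the regions rests on these 2 libraries. When every control had to hold both marks, 18 collagen genes were bivalent in the brainstem and 6 in the telencephalon, the opposite order. That rule asked for 2 controls in the brainstem and 3 in the telencephalon. No share of all genes was set beside these recounts.

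Single genes did not separate the regions. H3K27me3 coverage of the 3 telencephalon controls was above that of the 2 brainstem controls without overlap at 0 collagen genes and below it at 0, against 0.236% and 0.668% of all autosomal genes. The 10 possible splits of 3 and 2 libraries allow no p under 0.1 in an exact permutation test, so that no gene could pass 0.05. The largest mean differences were −16.8 points at *Col4a3* (37.7 ± 20.2% in the brainstem, SD, n = 2, and 21.0 ± 15.6% in the telencephalon, n = 3, exact permutation p = 0.4), −13.8 points at *Col4a4* and 13.4 points at *Col6a3*. Fewer libraries separate more easily: without brainstem culture 61 the groups did not overlap at 10 collagen genes and at 9.26% of all autosomal genes, and without telencephalon culture 59 at 9 collagen genes and at 4.12%. Without each of the others it was 1 or 2 collagen genes.

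Collagen promoters with H3K27me3 tended to hold more CpG dinucleotides, counted over all promoter windows of each gene in the reference. The median was 2.31 per 100 bp (range 1.56 to 2.85) at the 8 genes marked in all 10 libraries, 1.99 (0.656 to 2.92) at the 8 marked in some K27M libraries, 1.88 (0.886 to 2.79) at the 14 marked in controls only and 1.07 (0.461 to 1.65) at the 9 marked in none. *Col5a2*, at 0.656, was marked in all 5 controls with fewer CpG dinucleotides than every other collagen gene except *Col3a1* and *Col28a1*. Among protein-coding autosomal genes the median was 1.84 for all, 3.00 for 1250 genes marked in all 10 libraries, 1.56 for 4584 marked in controls only and 1.79 for 13385 marked in none. The order among the collagen genes was therefore not that of protein-coding genes, where unmarked genes held more CpG than genes marked in controls only. The letters TATAAA, searched on both strands of the 300-base RefSeq promoters, were found in 5 of 33 entries for collagen genes (*Col3a1*, *Col10a1*, *Col11a2*, *Col13a1* and *Col17a1*) or 15.2%, and in 13.6% of 31396 autosomal entries.

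**Figure D5:**
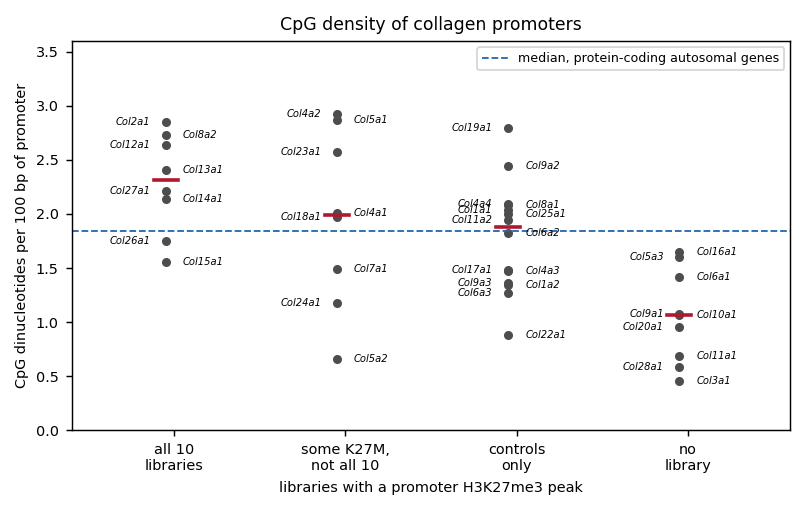
CpG dinucleotides per 100 bp of promoter, 1 point per collagen gene, by the libraries in which the gene had a promoter H3K27me3 peak, with group medians as red lines and the median of protein-coding autosomal genes (1.84) as a dashed line. Genes marked in no library all sit under the dashed line, at 0.461 to 1.65. Each of the other groups overlaps this range and also holds genes under the line.

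The genes that process collagen carried mostly H3K4me3. Of 28 genes for modification, cross-linking and cleavage, 5 to 14 had promoter H3K27me3 in controls and 4 to 7 in K27M, and 22 to 27 and 23 to 25 had H3K4me3. H3K27me3 was in all 10 libraries at 3, *P4ha2* and *P4ha3*, which encode prolyl hydroxylase subunits, and *Lox*, which encodes the enzyme that cross-links collagen. H3K27me3 coverage was lower in K27M in 5 of 5 pairs at 3 of the 28, and a peak was present in the control and absent in K27M in at least 3 pairs at 4, *Colgalt2*, *Loxl3*, *Pcolce* and *Tll1*, where the shares of protein-coding genes given above were 4.84% and 11.0%. H3K27me3 was in no library at 12 of the 28. Of 10 collagen receptors, 1 to 4 had H3K27me3 in controls and 1 to 2 in K27M. *Itga11*, a receptor for type I collagen, had it in all 10 libraries, and *Itga2*, the α2 integrin chain that binds collagen on platelets, and *Lair1*, an inhibitory receptor of immune cells, had it in 3 of 5 controls and 0 of 5 K27M libraries. *Itgb1*, *Ddr1*, *Itga1* and *Adgrg1* had H3K4me3 in all 10 libraries and H3K27me3 in none.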

How the data were processed

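Peak lists of H3K4me3 and H3K27me3 from 20 libraries of 10 OPC cultures were used, grouped by their labels, and 20 input samples were not used. Reads had been mapped by the authors to mm10 (BWA 0.7.17-r1188), and they called peaks per library against its input with MACS2 (2.2.7.1), broad for H3K27me3, and replicates were not pooled. Drosophila spike-in did not enter these calls. The deposited lists give for each peak a ratio, the fold enrichment over input, together with −log10 p and −log10 q values, as the authors' caller wrote them, and an integer score, which was not used. They hold no read counts, so depth is not given here and signal below the threshold was not measured.

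Promoters came from GENCODE M21 on GRCm38, while the study's methods name another release. A promoter had a peak when at least 1 bp of any window was covered, and coverage is the share of the merged windows of a gene under peaks. Consensus peaks followed the rule of the study's methods, in which peaks were stringent at p of 1e-08 and weak at 1e-04 for H3K27me3, or 1e-10 and 1e-06 for H3K4me3, and at least 2 cultures had to contribute. Intervals were handled in Python 3.11.15 with numpy 2.4.6, pysam 0.24.0 and scipy 1.17.1, plotted with matplotlib 3.10.9, and the functions were tested on simulated data.

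Comparisons of genotype were made inside the 5 matched pairs by two-sided exact sign-flip permutation tests run for every autosomal gene, and counts over the collagen genes were described without a test. The study's methods describe the cultures as matched. Across promoters, deviations from the group means correlated within cultures at r = −0.14 in the brainstem and 0.51, 0.35 and 0.07 in telencephalon cultures 59, 60 and 61 for H3K27me3, and at −0.00, 0.74, 0.40 and 0.53 for H3K4me3. Each culture came from pooled tissue of a region and genotype, and nothing says how many animals each held, so p-values measure the spread between cultures.

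The collagen genes, the pathway and marker lists and the tests were chosen with earlier results of these data known. Values in every library are given for genes with a peak in the control and not in K27M in at least 3 pairs, genes whose consensus state differed between regions, the 3 genes of highest mean control coverage and both type IV pairs that share promoters, and every other collagen gene is named with its number of libraries. *Col5a2* and *Col26a1* were added after their values were seen. Alternatives were a −log10 q or a fold of at least 3, equal numbers of peaks per mark, a window of 500 bp on either side of the start, an overlap of at least 500 bp, each culture left out, and no pairing. Counts of genes with a peak were also set beside protein-coding genes, and bivalent genes were recounted with each mark required in every control.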

Additional observations from a re-analysis of the deposited data

How the results depend on the processing

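The lower number of collagen genes with promoter H3K27me3 in K27M (mean −11.8) kept its direction under every alternative run, at −6.60 with a −log10 q of at least 3, −3.00 where peaks needed a fold of 3, −2.60 with equal numbers of peaks and −13.5 to −10.5 with each culture left out. For genes with both marks (−8.60) the values were −4.80 with a −log10 q of at least 3, −2.00 with a fold of at least 3, −0.800 with equal numbers and −10.5 to −7.50 with each culture left out. The H3K4me3 difference (0) ranged from −1 to 1 with a culture left out. The count of collagen genes with lower H3K27me3 coverage in every pair (7) was 4, 1 and 3 under those 3 settings, 3 in the 500 bp window and 7 to 14 with a culture left out. With no replicate block, 4 collagen genes, and 7.42% of 12795 genes with a peak, were lower at an unadjusted exact permutation p under 0.05 (smallest p 0.0167 over 120 arrangements) and 0 after adjustment over all genes (smallest adjusted p 0.279). The paired test cannot pass 0.05 for any gene, so calls with and without pairing cannot be compared. With a culture left out, the same count for H3K4me3 (0) was 0 to 5 and that of collagen genes not overlapping between regions (0) was 1 to 10, while the latter was 0 under the other settings. The fibrillar minus other share (0.714 points) reversed to −2.34 with a fold of at least 3, −3.05 with equal numbers and −2.52 without brainstem culture 61, within −2.52 to 3.00 over all cultures left out. Bivalent collagen genes in telencephalon controls (19) numbered 10 with a fold of at least 3, 9 with equal numbers, 6 when each control had to hold both marks (18 in the brainstem, against 12) or with cultures 59 and 61 only, and 6 to 19 with a culture left out. Leaving out a brainstem culture gave no brainstem consensus, as 1 was left. Why these values moved was not tested. Of 90 values under alternatives, 64 were classed as the same, 23 as moved and 3 as reversed. The first class was wide, with counts taken as the same up to a ratio of 1.5. It held the change from −8.60 to −4.80 for genes with both marks and from 12 to 18 for bivalent genes in the brainstem. It also held the values set beside protein-coding genes, which could not change because only the background did. Peak lists without read counts cannot tell a lost mark from one below the threshold, the K27M lists of H3K27me3 were shorter in every pair, and 5 pairs allow no p under 0.0625.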
